A study of Mus musculus with 4 samples.

Results

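The elongation factors Eef1a1, Eef2 and Eef1g were followed through ribosome footprints in wild-type C57BL/6 mouse embryonic fibroblasts, connective tissue cells taken from embryos. All 4 libraries came from confluent cells that had been synchronised with dexamethasone, a glucocorticoid that sets the circadian phase of cultured cells, and moved from 35 °C to 38.5 °C 24 h later. The 2 control libraries had no further agent, and the 2 wortmannin libraries had 17β-hydroxy wortmannin, an inhibitor of PI3K, added at the same point. Independent experiments are named in the series text, without which library belongs to which. The deposited files count footprints per UCSC transcript without gene names, so the 3 genes were chosen by coding length: 3 of 63759 transcript rows. The row for Eef1a1, uc009qun.1 (453 codons), was fixed by its ID after an earlier look at these data, in which it was named from its fall with wortmannin. The rows for Eef2, uc007gge.2 (849 codons), and for Eef1g, uc033jjq.1 (428 codons), are those with the largest summed count at these lengths. Other genes share each length. The fall of the Eef1a1 row and the levels of the Eef2 and Eef1g rows were used to choose them. Their values are therefore a description, with no test.

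The control libraries held 15376778 and 31110420 counts, and those with wortmannin 7677780 and 7485868. The wortmannin libraries stood further apart than the control libraries, with a chi-square per degree of freedom of 6.89 against 1.67. Of 26602 rows tested, 17.3% were called lower and 15.8% higher with wortmannin by the quasi-likelihood test of edgeR, at an adjusted p (Benjamini-Hochberg) under 0.05. Both wortmannin libraries lay below both control libraries in 34.9% of tested rows and above both in 34.1%. Of 22 listed cell type markers, 9 could be read through a length of their own. The 3 fibroblast markers among them (Col5a1, Col6a3 and Fbn1) lay between 328 and 1450 CPM (counts scaled to library size) in control cells. Of the 6 markers of other cell types, 5 were under 2 CPM in both groups and the neural marker Nes was at 15.7 and 16.4 CPM. All values are relative to the library, and fewer cells of a type cannot be told apart from less RNA per cell. Matched mRNA was not analysed, so less mRNA of a gene cannot be told apart from less translation of it.

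Elongation is the step of translation in which the ribosome adds amino acids one at a time. eEF1A, encoded by Eef1a1, brings aminoacyl-tRNA to the ribosome as a complex with GTP, and the eEF1B complex, of which eEF1G is a structural subunit, exchanges its spent GDP for GTP. eEF2 moves the tRNAs and the mRNA along by one codon after each bond. The mRNAs of these factors are textbook members of the TOP class, whose transcripts begin with a C followed by an unbroken run of pyrimidines (C or T in the gene) and whose translation is controlled by mTORC1, a kinase complex that acts downstream of PI3K.

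The sequences around the starts of Eef1a1 and Eef2 are shown because a start-site motif is the known common feature of these mRNAs. They are from the RefSeq promoter table on GRCm38, the assembly of mm10, which held an entry for these genes and none for Eef1g, and, for the second Eef1a1 stretch, from the GENCODE M21 transcript. Capitals mark the TATANAA motif in the first line of each gene and a match of CTNTTNC in the second.
Eef1a1, chr9:78481690-78481716, minus strand: ggtgggggagaacggTATATAAgtgcg
Eef1a1, chr9:78481659-78481681, minus strand: cttggacgttCTTTTTCgcaacg
Eef2, chr10:81176601-81176627, plus strand: caaccggcgtcgaccTATAAAAggccg
Eef2, chr10:81176636-81176658, plus strand: cgtcagcggtCTCTTCCgccgca

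In both genes the CTNTTNC match is 7 bases of C or T and begins 30 bases after the first base of TATANAA. The unbroken run of C or T around it begins with T and is 9 bases long in Eef1a1 and 8 in Eef2. Both matches lie inside the annotated transcript, at base 54 of Eef1a1 and base 16 of Eef2. Neither annotated start is itself a C followed by 4 or more C or T, a form that 2.51% of the 32851 promoters in the table have. Within 20 bases of the annotated start, the longest run of C or T was 10 bases in Eef1a1 and 6 in Eef2, against a median of 5. A run as long or longer was found in 7.39% and 37.5% of promoters. TATANAA was searched on both strands and is in 11.3% of these 300-base windows. CTNTTNC, also searched on both strands, is in 54.3% of them, and Eef1a1 has a further match across its annotated start, upstream of its TATANAA. Both motifs were chosen after these sequences had been read, and a match is a description of letters, not evidence of a start site.

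The names were checked against the order of the files. For each row, the rows of 300 codons or more within 25 lines were compared with the coding lengths of genes within 1000000 bp of the named gene. For uc007gge.2, 26 of 27 neighbours had the length of a gene near Eef2 (chromosome 10, 81176631 to 81182498), against 3 of 27 for the best of the 22 other genes of 849 codons. For uc009qun.1, 9 of 24 had the length of a gene near Eef1a1 (chromosome 9, 78478449 to 78489151). This is under a share of 0.5, but the best of the 42 other genes of 453 codons, Lmna, had 4. For uc033jjq.1, 5 of 28 neighbours had the length of a gene near Eef1g (chromosome 19, 8967041 to 8978479), fewer than for another gene of that length (7 of 28). The second most counted row of 428 codons, uc008goi.1, had 15 of 22, against 5 of 22 for the best of the 43 other genes.

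The data thus go against the name Eef1g for the row that the rule takes. That row is called the first 428-codon row here, and uc008goi.1, chosen after its values were seen, the second 428-codon row. The order of the files served only to check names that the lengths allowed. At lengths of 40 elongation cycle genes (listed further on), 1.56% of 88921 pairs of a row and a gene of its length reached a share of 0.5.

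Eef1a1, the most abundant of the 3 in control cells, had 24772 and 53534 footprints in control cells, against 551 and 627 with wortmannin. Scaled to library size these were 1590 and 1711 CPM against 73.9 and 83.4 CPM. The group means were 1651 ± 85.4 and 78.7 ± 6.70 CPM (SD, n = 2). The level with wortmannin was thus 20.98-fold lower, or -4.39 ± 0.13 (SE) as a log2 fold change. The 2 libraries of each group lay close together and the groups did not overlap.

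Eef2, the translocation factor, had 11807 and 24150 footprints in control cells, against 505 and 482 with wortmannin. These corresponded to 758 and 772 CPM against 67.8 and 64.1 CPM. The level was 11.6-fold lower with wortmannin (765 ± 9.83 against 65.9 ± 2.58 CPM, SD, n = 2), or -3.54 ± 0.11 (SE) as a log2 fold change. Again both wortmannin libraries were far below both control libraries. A row of 111 codons that stands 2 lines before it in the files had 113 and 110 CPM in control and 8.72 and 7.58 CPM in wortmannin libraries, a log2 fold change of -3.77 ± 0.13; whether it holds some of the same footprints was not tested.

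At the length of Eef1g, the first 428-codon row had 141 and 164 CPM in control cells, against 102 and 70.8 CPM with wortmannin (log2 fold change -0.82 ± 0.17, SE). Its wortmannin libraries lay further apart than those of Eef1a1 or Eef2, and leaving out 1 of them moved the value to -1.13 or -0.58. The second 428-codon row had 2520 and 5425 footprints in control and 188 and 208 in wortmannin libraries. That was 162 and 173 CPM against 25.2 and 27.7 CPM, a 6.34-fold lower level and a log2 fold change of -2.66 ± 0.12. The control levels of these rows were near each other, so the choice between them decides whether the Eef1g length shows a small or a large difference.

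**Figure D1:**
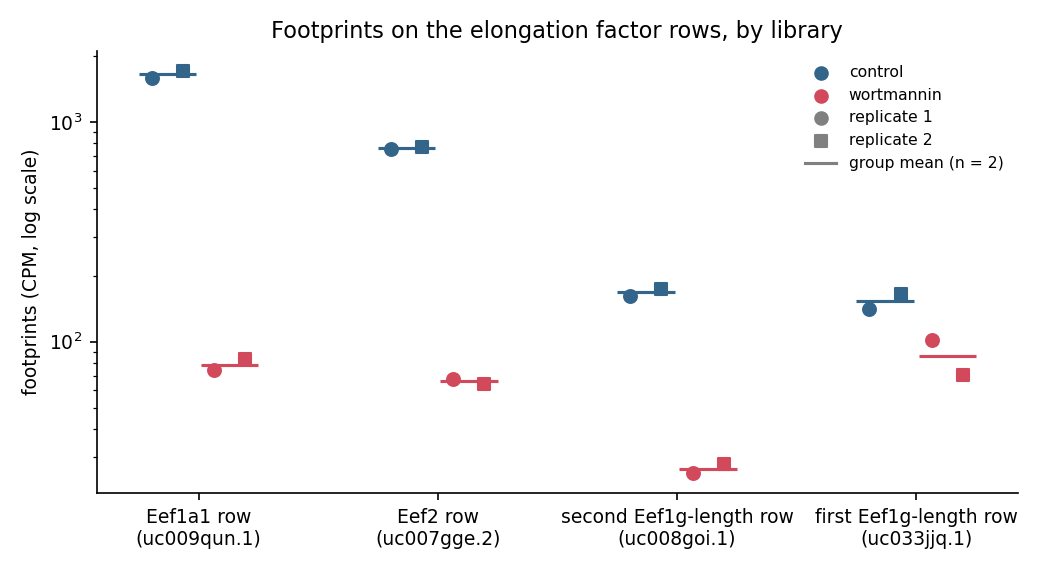
Footprints in CPM (log axis) on the Eef1a1 row, the Eef2 row and the 2 most counted rows of the Eef1g length (428 codons); each point is 1 library and each bar a group mean of 2 libraries. The Eef1a1 row goes from 1651 to 78.7 CPM and the Eef2 row from 765 to 65.9 CPM, while the first Eef1g-length row (uc033jjq.1) goes from 153 to 86.3 CPM.

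The place of these rows among all row counts changed accordingly. Eef1a1, Eef2 and the first 428-codon row held 0.252% and 0.266% of all counts in control cells, against 0.0236% and 0.0219% with wortmannin. With the second 428-codon row in place of the first, the shares were 0.254% and 0.267% against 0.0162% and 0.0176%. All counts are summed over transcript rows, some of which have identical counts, so these are shares of row counts. Per length, Eef1a1 had 351 and 378 CPM per 100 codons in control cells, which placed it 48th and 46th of 22400 distinct rows of 100 codons or more, and 16.3 and 18.4 with wortmannin, where it stood 1198th and 1044th. Eef2 had 89.3 and 90.9 CPM per 100 codons in control and 7.98 and 7.55 with wortmannin, and moved from places 239 and 245 to 2764 and 2892. The second 428-codon row moved from places 617 and 605 to 3864 and 3403. The first 428-codon row stayed near its place, at 719 and 636 in control and 765 and 1164 with wortmannin.

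The densest rows of control cells moved in both directions. Of the 100 densest rows in control cells, 46 were called lower and 25 higher (edgeR, Benjamini-Hochberg), against 17.3% and 15.8% of all tested rows, with a median log2 fold change of -0.33. Rows were picked here by control density, which also enters the fold change, and the background was not matched to them in level. Of the 50 densest, 15 were lower and 18 higher (median 0.07), and of the 20 densest, 6 and 6 (median -0.37). Rows with distinct counts were counted apart even where their IDs are consecutive. Those from uc007bju.2 to uc007bkd.2, denser than Eef1a1 in control cells, were each called higher (log2 fold changes of 0.37 to 0.44). Whether they share footprints was not tested, so the higher calls among dense rows may stand for fewer genes. Of the 100, none had a larger fall than Eef1a1, and the only one with a larger fall than Eef2 was Eef1a1. The Eef1a1 row was named from its fall in these data, so its place here describes that choice and is not a test.

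**Figure D2:**
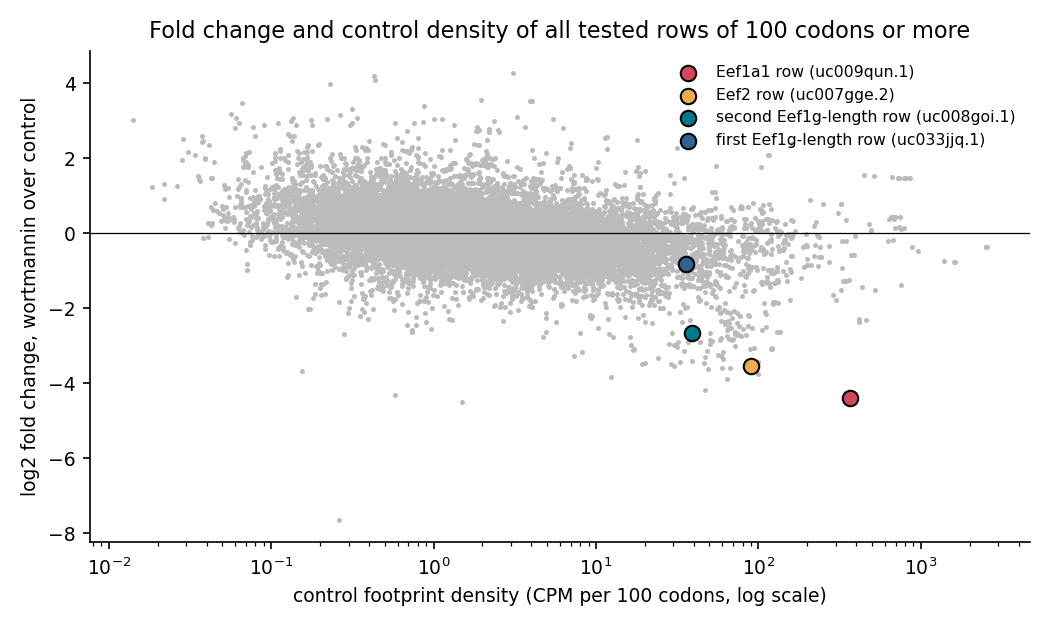
Log2 fold change of wortmannin over control (y axis) against mean control footprint density in CPM per 100 codons (x axis, log scale) for all tested rows of 100 codons or more with distinct counts (grey) and the rows described here (coloured). The Eef1a1 row (-4.39) and the Eef2 row (-3.54) lie at the lower edge among dense rows, and the first Eef1g-length row (-0.82) lies within the cloud.

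Ratios within a library need no scaling between libraries. Eef1a1 had 3.93 and 4.15 times the counts per codon of Eef2 in control cells, against 2.04 and 2.44 times with wortmannin. The log2 ratio was thus lower by 0.86 with wortmannin (log2 difference -0.86), more than the largest gap of 0.25 within a group. Eef1a1 had 9.29 and 9.32 times the counts per codon of the second 428-codon row in control and 2.77 and 2.85 times with wortmannin (log2 difference -1.73, gap within a group at most 0.041). For Eef2 over that row the ratios were 2.36 and 2.24 in control and 1.35 and 1.17 with wortmannin (log2 difference -0.87). Eef1a1, Eef2 and the second 428-codon row thus stood in the same order by control density and by fold change, and their densities lay closer together with wortmannin than without. The closer densities restate the fold changes. As the rows were chosen by their fall, by their level or after their values were seen, the order is only a description of them.

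Against the first 428-codon row, Eef1a1 went from 10.6 and 9.85 times its counts per codon to 0.686 and 1.11 times, and Eef2 from 2.71 and 2.37 to 0.335 and 0.457 times. In all 5 of these ratios the wortmannin libraries lay below the control libraries. The ratios share rows, and each has the row with the larger fall as numerator. Their common direction thus follows from the fold changes and is not further evidence. With 2 libraries per group an exact two-sided permutation test cannot give a p under 0.333, so none was run.

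**Figure D3:**
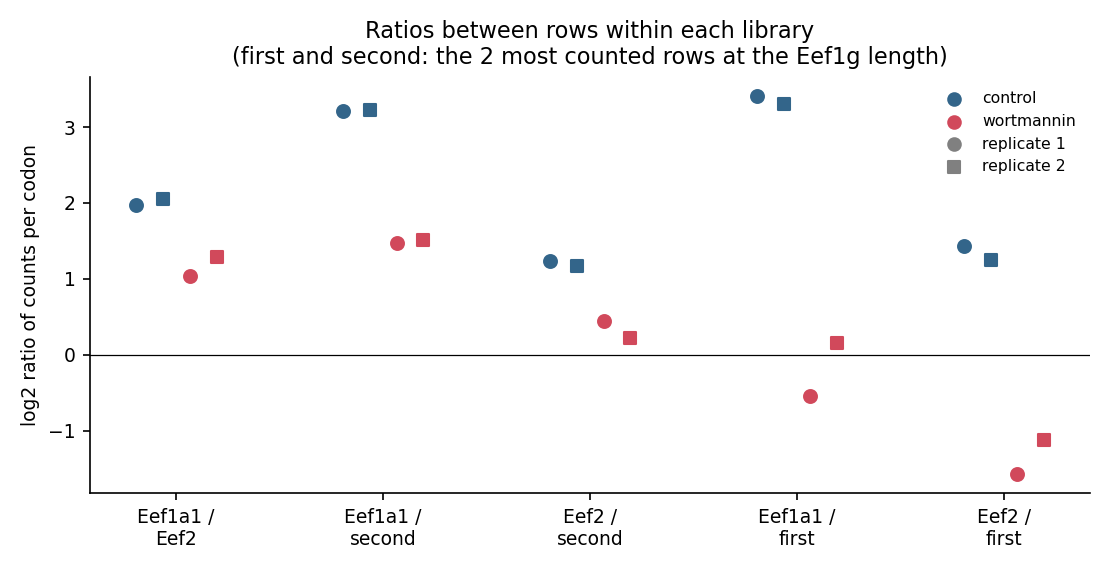
Log2 ratio of counts per codon between pairs of rows (x axis) in each library (points); first and second stand for the 2 most counted rows of the Eef1g length. Eef1a1 over Eef2 goes from 1.98 and 2.05 in control to 1.03 and 1.29 in wortmannin libraries, and in each pair the wortmannin points lie below the control points.

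Other rows of the same lengths differed in both directions. At 453, 849 and 428 codons, 69 other rows with distinct counts were tested, of which 14 were called lower and 12 higher (edgeR, Benjamini-Hochberg); the background was 17.3% lower and 15.8% higher. Their median log2 fold change was 0.06, and their lowest value was that of the second 428-codon row. The second most counted row of 453 codons, whose neighbours matched Lmna (22 of 28), was at 277 and 277 CPM in control and 244 and 246 CPM with wortmannin. The second most counted row of 849 codons, whose neighbours matched the chaperone gene Hsph1 (10 of 13), was at 339 and 362 CPM against 229 and 245 CPM. Without control replicate 1 or 2, 8 and 7 of the other rows were called lower, and DESeq2 called 9.

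The other genes of the elongation cycle were read from a list of 40 that covers cytosolic elongation, termination, the enzymes that modify the factors, and mitochondrial elongation. Taken as the most counted row at each coding length, the list gave 38 distinct tested rows, of which 20 were called lower and 4 higher (edgeR, Benjamini-Hochberg), against 17.3% and 15.8% of all rows, with a median of -0.48 against 0.00 for all rows. Without the 3 rows of the rule, which were chosen by their fall or their levels, 17 of 35 were lower and 4 higher, with a median of -0.30. These 35 rows too were chosen by their summed counts, to which the larger control libraries add most. The background of all rows was not matched to them in level. Choosing by mean wortmannin CPM instead gave 16 lower for the whole list, with a median of -0.22. The lengths alone do not name these rows: of the 8 most counted beside the 3 rows of the rule, taken at the lengths of Dohh, Dhps, Gfm1, Eif5a2, Eef2k, Gtpbp1, Eef2kmt and Gtpbp2, none reached 0.5 in the neighbour check. For example, the most counted row of 715 codons, the length of the eEF2 kinase Eef2k, was at -1.78, with 0 of 22 neighbours near Eef2k. The row that served for the release factor Gspt1, of 627 codons, was at -3.48 with 0 of 18 neighbours near Gspt1, and 10 of 18 near Pabpc1, which has the same length.

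With only rows that reached 0.5 for the listed gene and for no other gene of that length, a choice made after the values were seen, 29 genes had a row. Eef1a1 was not among the 29, since its row, with 9 of 24 neighbours, was under 0.5. Of the 29 rows, 9 were called lower, 1 higher and 19 neither (edgeR, Benjamini-Hochberg), with a median of -0.32. Without Eef2 and the second 428-codon row, 7 of 27 were lower and 1 higher (median -0.30), against 17.3% lower and 15.8% higher over all tested rows.

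The eEF1B subunits were all among those that fell. The row of the Eef1b2 length, the subunit that catalyses nucleotide exchange, had 65.7 and 61.5 CPM in control and 11.3 and 8.91 CPM with wortmannin (-2.65 ± 0.14 on the log2 scale, adjusted p = 6.986e-06 in edgeR). The row of the Eef1d length, the other exchange subunit, went from 59.4 and 60.03 to 20.1 and 18.1 CPM (-1.64 ± 0.12). In both, the wortmannin libraries were well below the control libraries. No tested row at the length of Eef1a2, the paralog known from muscle and neurons, passed the check.

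Of the other factors that act on the ribosome, some passed the test. The row of the Eif5a length, a factor that helps the ribosome through stalls such as proline stretches, went from 124 and 129 to 70.2 and 66.7 CPM (-0.89 ± 0.10). The release factor row at the length of Etf1 was at -1.05 ± 0.14, and that of Gspt1, its GTPase partner, at -0.42 ± 0.11 (adjusted p = 0.0197). The Gspt1 call was lost in DESeq2 and without either control library (adjusted p = 0.1, 0.154 and 0.295). Rows of the lengths of Eefsec (-0.33 ± 0.18), Gspt2 (-0.30 ± 0.54) and Hbs1l (-0.32 ± 0.15) did not pass. In control cells they had 6.23 and 6.49, 0.514 and 1.25, and 10.9 and 10.3 CPM, against 46.5 and 49.9 CPM for the Gspt1 row. A fall of the size of Gspt1 was thus less detectable in them. The row of the Eef2k length that passed the check, the kinase that inhibits eEF2, was at 69.3 and 67.7 CPM in control and 65.6 and 80.8 CPM with wortmannin (0.10 ± 0.12), so its groups overlapped.

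Rows for enzymes that modify the factors and for the GTPases Gtpbp1 and Gtpbp2 were 15 in number, and none was called lower, against 17.3% of all tested rows. The enzymes of diphthamide, the modified histidine of eEF2, gave 7 rows with a median of -0.03. Those of 5 methyltransferases had a median of -0.36, with Eef1akmt1 at -0.36, Eef1akmt2 at -0.17, Eef1akmt4 at -0.51 and Eef2kmt at -0.49, none past the test. Dohh, which completes hypusine on eIF5A, was at 0.40 ± 0.14. The other methyltransferase, Mettl13, which acts on eEF1A, was the 1 row that rose, from 6.93 and 6.94 to 9.53 and 15.4 CPM (0.85 ± 0.21, adjusted p = 0.0146); the call was lost without control replicate 1 or 2 or without wortmannin replicate 2 (adjusted p = 0.0555, 0.0761 and 0.0655). These 15 rows had 1.11 to 11.9 CPM in control cells, with standard errors of 0.14 to 0.40, against 6.66 to 765 CPM for the 9 rows called lower. Smaller falls were thus less detectable among them.

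Of mitochondrial elongation factors, the row for Tufm, which carries aminoacyl-tRNA in mitochondria, fell (-0.77 ± 0.13). It has 426 codons, a shorter annotated coding length of Tufm than the 443 used for the list. For Tsfm, the exchange factor of Tufm, the row of its length also fell (-0.79 ± 0.22), and that of Gfm2 was at 0.43 ± 0.16 and did not pass. The Tufm call was lost without control replicate 2 (adjusted p = 0.0672), and that of Tsfm without control replicate 1 or 2, without wortmannin replicate 1 and in DESeq2 (adjusted p = 0.128, 0.0786, 0.0765 and 0.108).

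**Figure D4:**
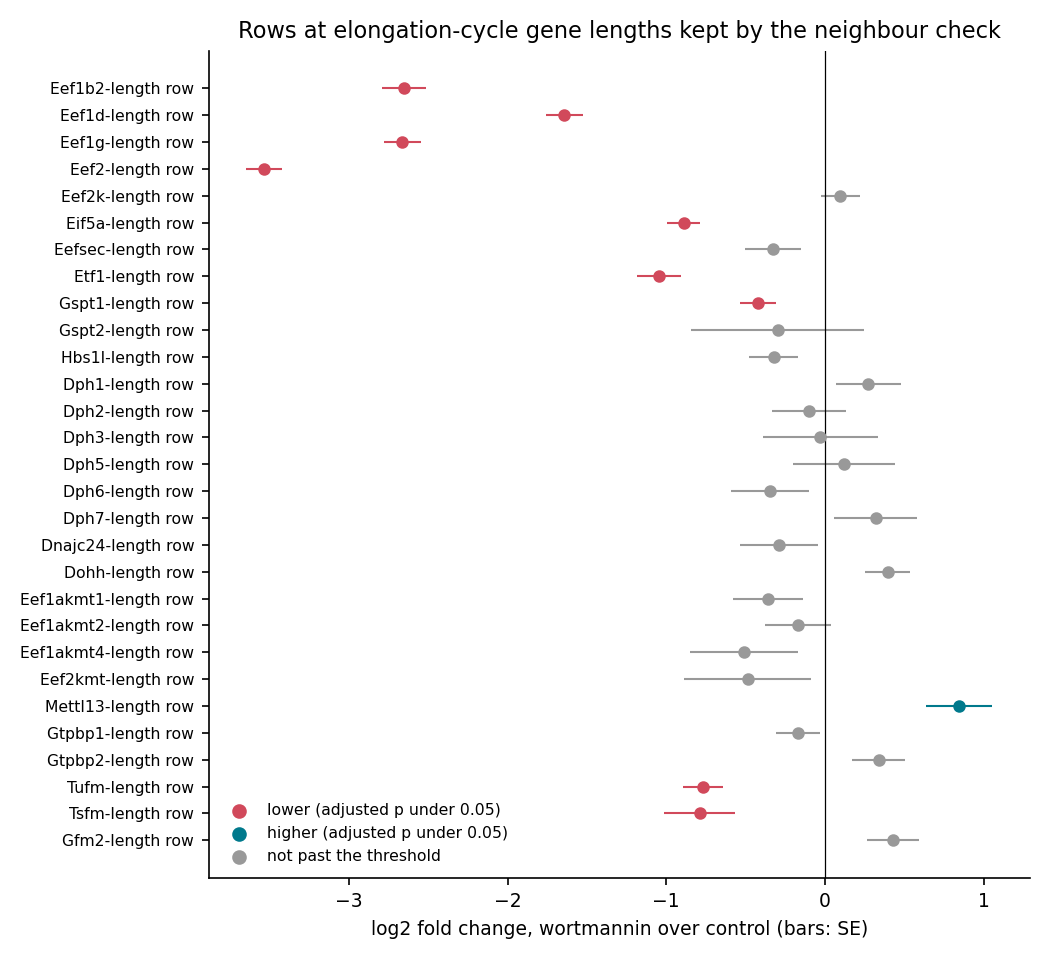
Log2 fold change of wortmannin over control (x axis, bars are SE from edgeR) for the 29 rows kept by the neighbour check at coding lengths of elongation cycle genes, in the order of the list. The rows of the eEF1B subunits and Eef2 lie between -3.54 and -1.64, and the rows of modifying enzymes and GTPases lie between -0.51 and 0.85 (Mettl13). The Eef1a1 row did not pass the check and is not shown.

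Initiation factors were read in the same way for comparison, without a test of the difference. The row of the Pabpc1 length, the poly(A)-binding protein, went from 122 and 130 to 10.1 and 12.5 CPM (log2 fold change -3.48 ± 0.14), near the value of Eef2. The row of the Eif4b length was at -1.69 ± 0.13 and that of the Eif3a length at -0.57 ± 0.11.

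Among 921 rows with distinct counts and at least 100 CPM, the profile over the 4 libraries nearest to the mean of the 3 rows (Euclidean distance of centred log2 CPM) was that of a row of 394 codons, at a distance of 0.25 and a log2 fold change of -2.87. Rpl3, a protein of the large ribosomal subunit, and Eif4b reached 0.5 among the 44 genes of this length. Also among the 5 nearest were rows of 238 and 308 codons, at distances of 0.39 and 0.44, with fold changes of -2.55 and -2.49. The check left no gene for the row of 238 codons, and Olfr1395 and Rack1 for that of 308. These 2 rows have consecutive IDs; whether they share footprints was not tested. The row of 394 codons was also the nearest to Eef1a1 alone, at a distance of 1.52, and to Eef2 alone, at 0.69. The floor of 100 CPM applies to the mean of the 4 libraries. It left out the Pabpc1-length row (-3.48) and the row of 111 codons near Eef2 in the files (-3.77). Both were nearer to Eef2 in fold change than the row of 394 codons, so the nearest row depends on the floor. The mean of the 3 rows takes in the first 428-codon row, whose log2 fold change was -0.82, against -4.39 for Eef1a1 and -3.54 for Eef2. The distance of 0.25 is thus to a mixture of unlike rows, not to a member.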

How the data were processed

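Each library's deposited file gives raw counts of footprints per UCSC transcript and a coding length, which was missing for 17340 of 63759 rows. Per the submitters' processing notes, CASAVA 1.8, STAR 2.7.0 and mm10 were used; what counted the footprints is not stated there. Matched mRNA was not analysed here. GENCODE M21 lengths matched best with 9 codons subtracted (94.5% of 1466 rows over 1500 codons), the scale used here.

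Counts were fitted over all rows with edgeR 4.0.16 in R 4.3.3 (TMM, expression filter with a minimum count of 10, quasi-likelihood test, Benjamini-Hochberg adjustment at 0.05), after a test on simulated data; standard errors were derived from the fold change and the F statistic. DESeq2 1.42.0 was an alternative, and Python 3.11.15 did the rest. CPM uses TMM library sizes. No label says whether libraries came from separate cultures, so p-values measure the spread between them, which may be partly technical.

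Members and lists were chosen with earlier results of these data known. Named were the rows of the rule, list genes with lengths of their own (none), the 8 most counted stand-ins, the 5 nearest profiles (2 of them not reported here) and 3 initiation factors; the Gspt1 stand-in and rows kept by the neighbour check were named after their values were seen.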

Additional observations from a re-analysis of the deposited data

How the results depend on the processing

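The log2 fold change of the Eef1a1 row lay between -4.47 and -4.32 with 1 library left out and between -4.43 and -4.38 under the other settings. For the Eef2 row the range was -3.59 to -3.49, for the first 428-codon row -1.13 to -0.58 and for the second -2.73 to -2.61. Taking another row changed far more: the second most counted row of 849 codons, which also has the largest mean in the wortmannin libraries, gave -0.57 in place of -3.54, and that of 428 codons -2.66 in place of -0.82. With 1 library left out, Eef1a1 over Eef2 lay between -0.98 and -0.73.

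Counts of calls moved more. DESeq2 called 2691 rows lower and 2302 higher, 2 of the elongation list higher, and 9 other rows of the member lengths lower. With 1 library left out, 1853 to 6283 rows were lower and 1269 to 5724 higher, 13 to 25 of the elongation list lower and 0 to 7 higher (median -0.51 to -0.36), and 7 to 20 other rows of the member lengths lower; these fits take the spread from the group that still has both libraries. Of rows kept by the neighbour check, 6 to 10 were then lower and 0 to 3 higher. Choosing rows by wortmannin CPM gave the list a median of -0.22, and keeping those that passed the check gave 9 lower, 1 higher and a median of -0.32. The neighbour check and the settings applied to its rows were chosen after seeing the data.

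Same-numbered libraries did not deviate together (correlation -0.07 across rows), so the labels' numbers were not taken as pairs. With a replicate block, 4134 rows were lower and 3729 higher, and the Eef1a1, Eef2 and first 428-codon rows were at -4.39, -3.54 and -0.84.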
